A study of Homo sapiens with 6 samples.

Results

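The 43 genes described here act in neurite growth and in the cytoskeleton of neurons. They were taken by symbol from a named list of growth cone proteins, stathmins, CRMP proteins, doublecortins, microtubule-associated proteins, tubulins, intermediate filaments, ELAVL proteins, kinesins, actin-binding proteins and pan-neuronal proteins. The list was drawn up with earlier results of these data known. All 43 had a row among the 58096 gene rows of the count table, and all 43 passed the filter on low counts as part of the 19343 genes tested. A growing neurite is led by a growth cone, a flat actin-rich end whose membrane is steered by phosphoproteins such as GAP-43. Behind it, microtubules built from alpha- and beta-tubulin are stabilised by microtubule-associated proteins, destabilised by stathmins, and used as tracks by kinesin motors. Neurofilaments fill the axon once it has formed, and they set its calibre in mature neurons.

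The RNA came from SH-SY5Y, a neuroblastoma line of human origin whose cells can extend neurites and which the labels call neuronal progenitors. All libraries shared one culture condition, DMEM with 10% serum (FBS) and 1% P/S in 10 cm dishes grown to 80% confluence. GFP replicates 1 to 3 received 2 ul of GFP adenovirus, and PGC1A replicates 1 to 3 received 2 ul of PGC-1a adenovirus, each for 48 h. PGC-1a, the product of PPARGC1A, coactivates transcription factors and is best known for raising mitochondrial mass, and the comparison asks what its delivery does to gene expression in these cells. No titre is given for either virus and uninfected cells were not analysed here, so virus dose and PGC-1a cannot be told apart. Whether replicates were separate cultures is not in the labels, and the p-values then reflect only how these libraries scatter, which may be technical. In bulk RNA, fewer cells that express a gene and less of its RNA per cell cannot be told apart.

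As a check of the labels, PPARGC1A was read 98, 131 and 135 times in GFP replicates 1 to 3 and 109350, 104546 and 103737 times in PGC1A replicates 1 to 3. Counts assigned to genes ran from 24988743 to 31762496 per library, and correlations of log2 CPM within groups were 0.995 to 0.996 across genes. No library stood apart. Of the noradrenergic neuroblastoma markers, 11 of 12 could be tested, and 9 were lower and 1 higher in PGC1A, with a median log2 fold change of -0.93 and a summed level of 1513 to 1520 CPM in GFP and 940.8 to 953.1 CPM in PGC1A. Of these markers 1 rose and 5 fell by at least 2-fold, where 19.0% and 16.8% of all genes did. TH, the first enzyme of catecholamine synthesis, had no counts in GFP but some in PGC1A. HAND2 and GATA2, transcription factors of sympathetic neuroblasts, averaged 252 and 235 CPM in GFP. Mesenchymal neuroblastoma markers were lower for 11 of 12 genes, with a median of -1.07 and a summed level of 4570 to 4644 CPM in GFP and 2196 to 2220 CPM in PGC1A. Of 10 Schwann cell and glial markers 6 could be tested, 3 higher and 3 lower, with a median of -0.50. Their summed level was 90.19 to 92.49 CPM in GFP and 43.03 to 43.85 CPM in PGC1A. SOX10, which defines that lineage, had no counts in any library. As background for these marker counts, 40.9% of all genes tested were higher and 42.1% lower at the same adjusted p of 0.05. Those marker sums moved in the same direction as most of the 43 genes, and their part in the results below was not tested.

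Most of the 43 genes were lower with PGC-1a, among them all 4 growth cone membrane proteins, all 4 stathmins and all 5 CRMP genes. The 9 that were higher were NEFL, TUBB4A, KIF5A, TUBB2A, KIF21B, DCLK2, INA, MAPT and MAP1A, of which MAP1A turned to -0.02 (log2) and MAPT lost its call with total counts in place of TMM scaling. Of the 43 genes, 33 fell (76.7%) and 9 rose (20.9%) at an adjusted p of 0.05 in edgeR's quasi-likelihood test with Benjamini-Hochberg adjustment over all 19343 genes. TUBB3 alone did not pass. These shares are read against a comparison in which 83.0% of all genes passed, 40.9% higher and 42.1% lower. Among the 11873 genes with a mean of at least 5 CPM, which include 42 of the 43, the shares were 45.7% and 45.4%. The median log2 fold change was -0.84 over the 43 genes and -0.03 over all genes. The middle of the 43 genes ran from -1.95 to -0.20 (lower and upper quartile), and that of all genes from -0.69 to 0.71. A fall of at least 2-fold was found for 20 of the 43 (46.5%, against 16.8% of all genes) and a fall of at least 4-fold for 10 (23.3%, against 4.37%). Rises of at least 2-fold were limited to NEFL, TUBB4A and KIF5A among the 43 (6.98%, against 19.0% of all genes). With total counts NEFL stayed past 2-fold (log2 fold change 1.22), whereas TUBB4A was at 0.84 and KIF5A at 0.75. Against a 1.5-fold change (edgeR's glmTreat), 4 of the 43 rose and 25 fell, where 24.6% and 23.1% of all genes did. The 3 GFP values and the 3 PGC1A values did not overlap for 42 of the 43, where 83.6% of all genes showed no overlap.

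**Figure D1:**
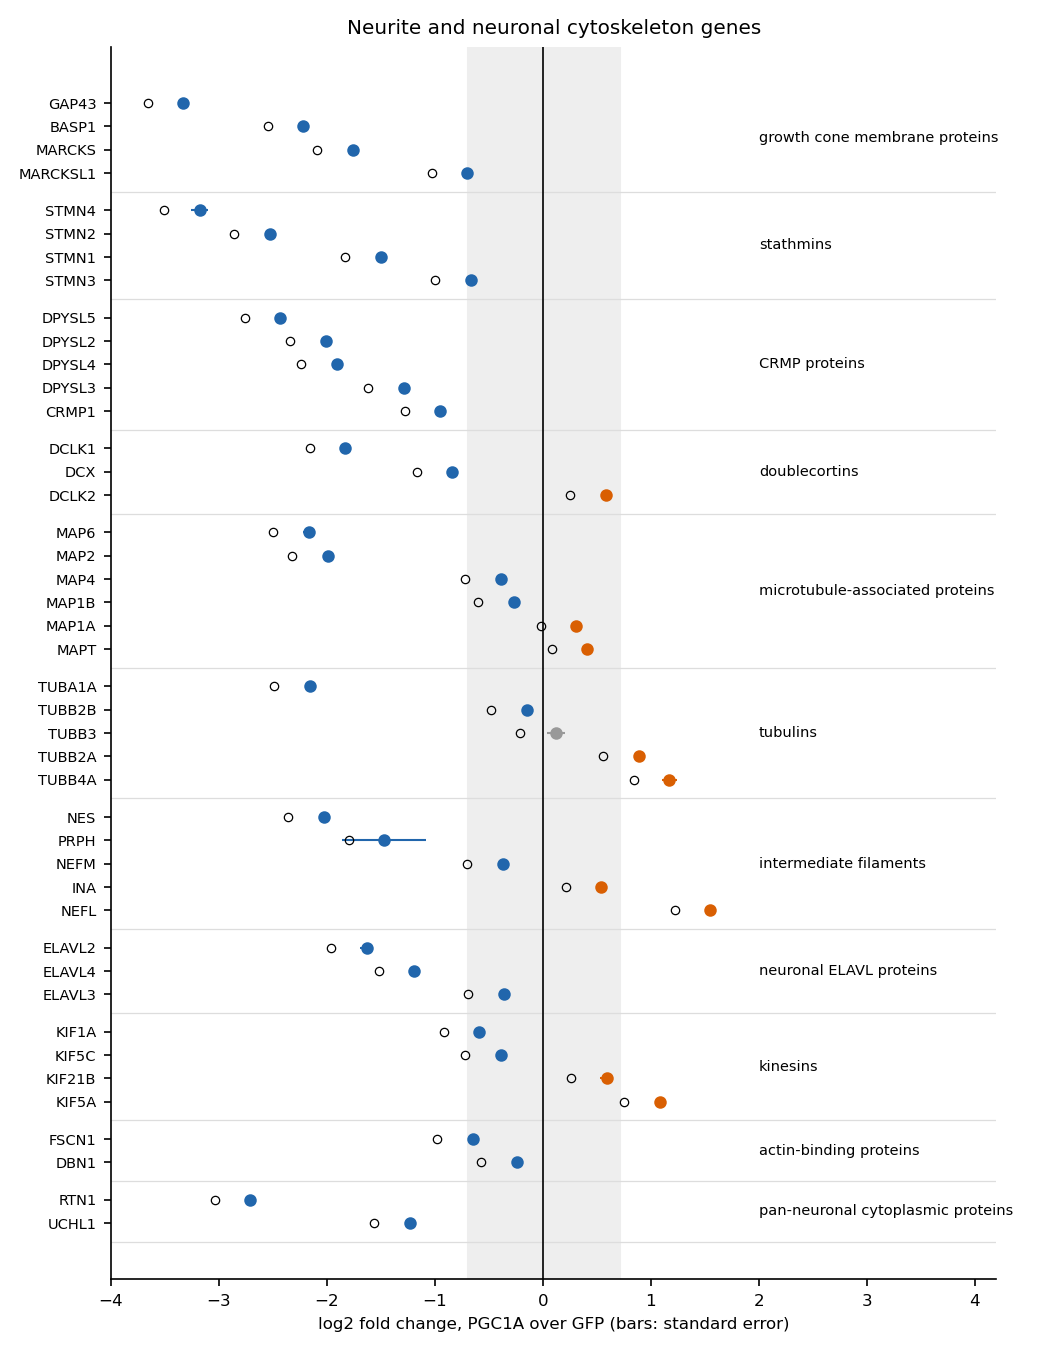
Log2 fold change of each of the 43 genes (x axis) by role class (y axis), with the standard error as a bar. Orange points rose, blue points fell and the grey point (TUBB3) did not pass, open circles give the value scaled to total counts (on which MAP1A and TUBB3 lie left of 0), and the grey band spans the quartiles of all genes; stathmins, CRMP proteins and growth cone proteins sit wholly to the left of 0, while tubulins, intermediate filaments and kinesins lie on both sides.

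The scaling matters for genes near 0. Scaled to total counts rather than TMM factors, the log2 fold change of the median gene moved by -0.33, the calls over all genes moved from 7909 higher and 8148 lower to 5778 higher and 10743 lower, and the 43 genes gave 7 higher and 34 lower with a median of -1.17. Upper-quartile factors moved the median gene by -0.13. Levels below are TMM-normalised CPM values, given for replicates 1, 2 and 3 in that order or as mean ± SD (n = 3), and adjusted p-values are from the edgeR test.

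The growth cone membrane proteins fell in 4 of 4 cases, with a median log2 fold change of -1.99. GAP43 (ENSG00000172020.12), the growth-associated protein that marks extending axons, measured 148, 148 and 149.8 CPM in GFP and 14.3, 15.3 and 14.9 CPM in PGC1A. The GFP values lay about 10.0-fold above the PGC1A values with no overlap, the largest change among the 43 genes. GAP43 fell by 3.33 (log2 fold change, SE 0.04, adjusted p = 1.07e-50). BASP1, a membrane-bound protein of the same phosphoinositide-rich patches as GAP-43, measured 81.8, 75.7 and 81.8 CPM in GFP and 16.9, 17.4 and 16.9 CPM in PGC1A. BASP1 fell by 2.22 on a log2 scale, with an SE of 0.04 and an adjusted p of 6.31e-41. MARCKS, a kinase C substrate that ties actin to the membrane, gave 231, 227 and 235 CPM in GFP and 66.4, 70.3 and 68.03 CPM in PGC1A. MARCKS fell by 1.76 log2 units (SE 0.03), at an adjusted p of 4.86e-44. Every GFP library was above every PGC1A library for both. Its relative MARCKSL1 changed less, from 278 ± 4.07 to 170.4 ± 0.582 CPM. MARCKSL1 fell by 0.70 (log2 fold change, SE 0.03, adjusted p = 9.84e-30).

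**Figure D2:**
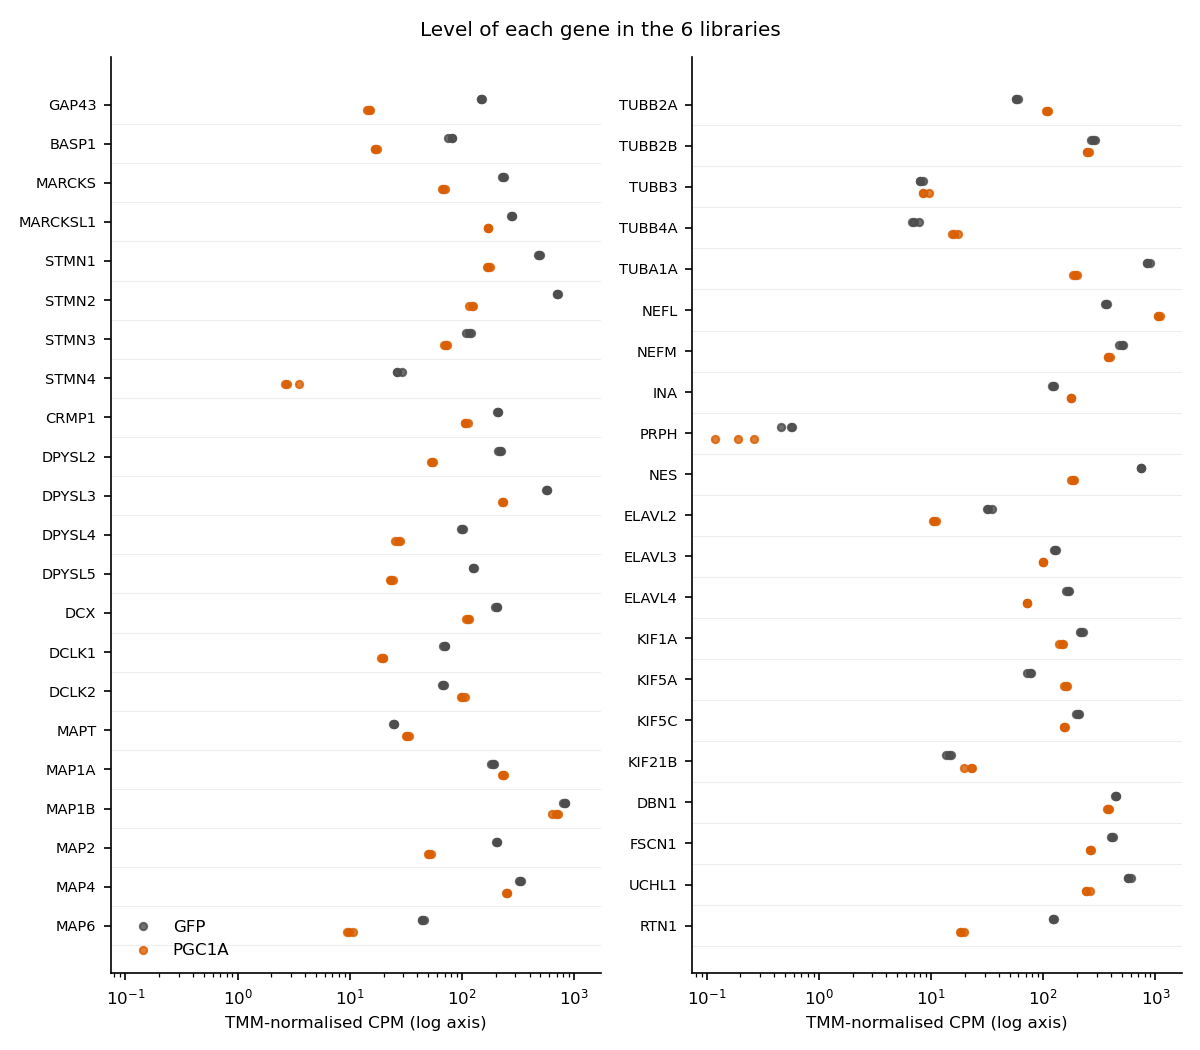
Level of each of the 43 genes in the 6 libraries, as TMM-normalised CPM on a log x axis, for GFP libraries in grey and PGC1A libraries in orange. Replicates lie close together except for PRPH, which had few counts, the PGC1A points of GAP43, STMN4 and RTN1 lie far to the left of the GFP points, and TUBB3 is the gene whose groups overlap.

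All 4 stathmins, small proteins that bind tubulin dimers and promote microtubule disassembly, fell, with a median of -2.02. STMN4, a neuron-specific stathmin, had 29.01, 26.3 and 26.2 CPM in GFP and 2.77, 3.495 and 2.67 CPM in PGC1A. The PGC1A libraries held about 9.09-fold less, and the groups did not overlap. STMN4 fell by 3.18 on a log2 scale, with an SE of 0.08 and an adjusted p of 1.28e-35. STMN2 (SCG10), which is carried to growth cones and is needed for axon regrowth, had 698, 707 and 715 CPM in GFP and 126, 124 and 117 CPM in PGC1A. STMN2 fell by 2.53 log2 units (SE 0.03), at an adjusted p of 1.67e-52. STMN1, the ubiquitous stathmin of dividing and migrating cells, had 479, 491 and 483 CPM in GFP and 176, 171 and 166 CPM in PGC1A. STMN1 fell by 1.5 (log2 fold change, SE 0.03, adjusted p = 1.03e-43). Both were lower in every PGC1A library than in any GFP library. STMN3, a further neuronal stathmin, went from 114 ± 5.16 to 71.8 ± 2.08 CPM. STMN3 fell by 0.67 on a log2 scale, with an SE of 0.03 and an adjusted p of 5.16e-24. The unequal falls altered the make-up of the family, described here without a test and per exon length. STMN2 supplied 70.8% ± 0.376 of stathmin RNA in GFP and 49.9% ± 0.331 in PGC1A, while STMN3 supplied 8.93% ± 0.317 and 22.9% ± 0.179. STMN1 went from 18.3% to 26.4%, or from 30.3% to 40.1% when lengths were those of the longest transcript. By that length STMN2 went from 58.6% to 37.9%, so STMN1 rather than STMN2 supplied the most in PGC1A. Summed over the family, the level per kilobase of exon went from 422 ± 4.99 to 104 ± 3.48 CPM.

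The 5 CRMP genes, which encode cytosolic relays of semaphorin signals that bind tubulin and shape growth cone turning, all fell, with a median of -1.91. DPYSL5 (CRMP5), which acts in early dendrite and axon growth, measured 126, 126 and 128 CPM in GFP and 23.1, 24.4 and 23.1 CPM in PGC1A. DPYSL5 fell by 2.43 log2 units (SE 0.04), at an adjusted p of 5.47e-46. DPYSL2 (CRMP2), which promotes axon outgrowth through tubulin assembly, measured 211, 219.9 and 221 CPM in GFP and 53.6, 52.95 and 55.1 CPM in PGC1A. DPYSL2 fell by 2.01 (log2 fold change, SE 0.03, adjusted p = 9.02e-46). DPYSL4 (CRMP3) measured 99.2, 102 and 98.8 CPM in GFP and 26.7, 25.4 and 27.9 CPM in PGC1A. DPYSL4 fell by 1.91 on a log2 scale, with an SE of 0.04 and an adjusted p of 8.77e-41. For these genes the PGC1A libraries were all below the GFP libraries, by about 5.38-fold, 4.04-fold and 3.75-fold. DPYSL3 (CRMP4), the most abundant of the 5 per exon length, went from 569 ± 8.76 to 232 ± 2.86 CPM. DPYSL3 fell by 1.29 log2 units (SE 0.02), at an adjusted p of 5.95e-42. CRMP1, a further relay of this kind, went from 209 ± 2.97 to 109 ± 3.67 CPM. CRMP1 fell by 0.95 (log2 fold change, SE 0.03, adjusted p = 2.71e-33).

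The doublecortins, which bind the lattice of microtubules in migrating and growing neurons, split. DCLK1, which joins a doublecortin domain to a kinase domain, had 70.8, 67.7 and 70.7 CPM in GFP and 19.2, 19.8 and 19.7 CPM in PGC1A. DCLK1 fell by 1.83 on a log2 scale, with an SE of 0.04 and an adjusted p of 3.80e-38. DCX, the doublecortin of migrating neuroblasts, had 207, 195 and 204 CPM in GFP and 109.8, 113 and 115 CPM in PGC1A. DCX fell by 0.84 log2 units (SE 0.03), at an adjusted p of 5.04e-31. DCLK2, the related kinase, went the other way with 66.2, 69.1 and 68.2 CPM in GFP and 98.9, 101 and 106 CPM in PGC1A. DCLK2 rose by 0.58 (log2 fold change, SE 0.03, adjusted p = 3.90e-22). Groups did not overlap for any of the 3. The rise of DCLK2 missed the threshold of the 1.5-fold test (adjusted p = 0.457 with glmTreat) and was 0.25 on the log2 scale with total counts.

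Of the 6 microtubule-associated proteins 4 fell and 2 rose (4 and 0 with total counts), with a median of -0.33. MAP6, also called STOP for its cold-stable microtubules, measured 44.4, 43.96 and 45.7 CPM in GFP and 9.38, 9.76 and 10.7 CPM in PGC1A. MAP6 fell by 2.17 on a log2 scale, with an SE of 0.05 and an adjusted p of 1.37e-36. MAP2, the dendritic and somatic stabiliser used as a marker of neurons, measured 207, 199 and 207 CPM in GFP and 51.3, 53.5 and 50.1 CPM in PGC1A. MAP2 fell by 1.99 log2 units (SE 0.03), at an adjusted p of 3.31e-45. In both, the GFP libraries stood about 4.5-fold and 3.96-fold above the PGC1A libraries without overlap. MAPT (tau), the axonal stabiliser, measured 24.8, 24.7 and 24.2 CPM in GFP and 32.5, 31.98 and 33.4 CPM in PGC1A. MAPT rose by 0.41 (log2 fold change, SE 0.05, adjusted p = 2.56e-11). MAP1A, which takes over from MAP1B as neurons mature, measured 180.2, 192 and 187 CPM in GFP and 233, 227 and 236 CPM in PGC1A. MAP1A rose by 0.31 on a log2 scale, with an SE of 0.03 and an adjusted p of 3.63e-15. Every PGC1A library was above every GFP library for MAPT and MAP1A on this scale, but with total counts MAP1A turned to -0.02 and MAPT was at 0.08 with an adjusted p of 0.0982. MAP4, the form found in most cell types, went from 330.3 ± 8.26 to 251 ± 2.66 CPM. MAP4 fell by 0.39 log2 units (SE 0.02), at an adjusted p of 8.16e-20. MAP1B, the early axonal form, went from 817 ± 17.4 to 676 ± 42.1 CPM. MAP1B fell by 0.27 (log2 fold change, SE 0.04, adjusted p = 6.29e-06). MAP4, MAP1B, MAPT and MAP1A all missed the threshold of the 1.5-fold test (adjusted p = 1 for each with glmTreat).

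Tubulins went in both directions, 2 higher, 2 lower and 1 not passed (2 higher and 3 lower with total counts). TUBA1A, the main alpha-tubulin of newborn neurons, measured 846, 887 and 836 CPM in GFP and 194, 198 and 183 CPM in PGC1A. The PGC1A libraries held less than any GFP library, by about 4.47-fold. TUBA1A fell by 2.16 on a log2 scale, with an SE of 0.03 and an adjusted p of 7.23e-46. TUBB4A, a beta-tubulin of mature neurons and oligodendrocytes, measured 6.81, 7.85 and 7.05 CPM in GFP and 17.5, 15.9 and 15.4 CPM in PGC1A. TUBB4A rose by 1.17 log2 units (SE 0.07), at an adjusted p of 7.12e-20. TUBB2A, a neuron-enriched beta-tubulin, measured 57.6, 59.9 and 57.7 CPM in GFP and 109, 109 and 106 CPM in PGC1A. TUBB2A rose by 0.89 (log2 fold change, SE 0.03, adjusted p = 6.74e-30). Both were higher in every PGC1A library than in any GFP library. TUBB2B, its neighbour and close copy, went from 276 ± 10.7 to 249 ± 5.95 CPM. TUBB2B fell by 0.15 on a log2 scale, with an SE of 0.03 and an adjusted p of 1.75e-06. That small fall missed the threshold of the 1.5-fold test (adjusted p = 1 with glmTreat). TUBB3, class III beta-tubulin and a common marker of neurons, had 8.55, 7.995 and 8.002 CPM in GFP and 9.53, 8.47 and 8.54 CPM in PGC1A. Its groups overlapped, and its log2 fold change of 0.12 (SE 0.08, adjusted p = 0.1687) turned to -0.01 with upper-quartile factors and -0.21 with total counts.

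Counting limits touch several of these tubulins. Of the 50-base words in TUBB2A exons 58.7% also occur in another annotated gene, as do 53.8% of those of TUBB2B, and 933 words are common to both genes. Reads from such stretches may be left out or split, so the levels of TUBB2A and TUBB2B are uncertain and their difference in direction rests on the remaining sequence. For TUBA1A the share was 22.1% and for TUBB4A 17.6%. TUBB3 shares 66.5% of its coding bases with a readthrough gene on the same strand (ENSG00000198211.8), which had no counts in any library, so its level is not a reliable measure of class III beta-tubulin. Without the 7 genes that share at least 10% of their words, 7 of 36 rose and 29 fell, with a median of -1.07, a check added after the data were seen. NEFL, which rose, shares 9.98% of its words and so stayed among the 36 by a narrow margin.

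The stretches upstream of TUBB2A and TUBB2B are shown because the calls for these near-identical neighbours on chromosome 6 had opposite directions. The log2 fold change of TUBB2B was only -0.15, and the shared words leave the levels of both uncertain. They are RefSeq sequence on GRCh38.p14 from before the annotated start, limited to bases outside any annotated exon, 5′ to 3′ on the minus strand, at chr6:3157545-3157794 for TUBB2A and chr6:3227736-3227903 for TUBB2B. Capitals mark matches on either strand to 1 of 4 promoter motifs, none of which overlaps another in these stretches. The GC box was searched for as GGGCGG. The letters TATAAA stood for the box of that name, and CCAAT for the one bound by nuclear factor Y. The cAMP response element was searched for as TGACGTCA.
TUBB2A: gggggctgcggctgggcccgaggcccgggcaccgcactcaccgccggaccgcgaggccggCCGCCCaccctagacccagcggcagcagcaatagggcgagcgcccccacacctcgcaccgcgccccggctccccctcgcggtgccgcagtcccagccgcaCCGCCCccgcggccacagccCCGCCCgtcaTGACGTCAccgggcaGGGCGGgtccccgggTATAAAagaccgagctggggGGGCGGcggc
TUBB2B: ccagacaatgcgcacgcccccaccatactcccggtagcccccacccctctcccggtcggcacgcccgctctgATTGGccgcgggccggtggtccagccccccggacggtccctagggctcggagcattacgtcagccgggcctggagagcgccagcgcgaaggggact
The 250 bases of TUBB2A hold 7 matches, among them a TATA box and a cAMP response element. The 168 bases of TUBB2B hold 1, a CCAAT box. That shorter stretch was cut where an annotated exon begins, so the bases nearest the RefSeq start are missing from it. It also lies within the span that GENCODE 29 gives TUBB2B (3224261 to 3231730). A GC box was found in a 300-base window of TUBB2B, so the numbers of matches in the 2 stretches cannot be compared directly. Those 2 stretches have a G and C content of 79.2% and 72.6%. Over RefSeq windows of 300 bases around starts, searched on both strands, TATAAA was found in 11.5% of 35116 windows and in 11.9% of the 67 windows of the 43 genes. TGACGTCA was found in 1.85% and 4.48%, the latter being 3 windows, those of TUBB2A, KIF1A and KIF5C. GGGCGG was found in 45% and 59.7%, and CCAAT in 34.6% and 37.3%. These windows matched 32 of the 43 genes. The 9-letter element TCAAGGTCA, bound by estrogen-related receptors, which are partners of PGC-1a, was in none of the 67 windows and in 0.353% of all windows. The palindromic site of NRF1 was in none of the 67 and 1.24% of all, and the ETS core CCGGAAG was in 1.49% and 10.3%. A match or its absence in these windows says nothing of binding.

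Seen as a family per exon length, and without a test, beta-tubulin RNA went from 567 ± 12.9 to 498 ± 11.5 CPM per kilobase. TUBB, the beta-tubulin that most cells use, supplied 49.2% ± 0.561 in GFP and 31.8% ± 0.452 in PGC1A. Another gene overlaps 40.3% of the coding bases of TUBB, and 23.9% of its 50-base words also occur elsewhere. TUBB4B, another widely used form, supplied 17.5% ± 0.178 and 29.4% ± 0.394. TUBB2A supplied 5.97% ± 0.0222 and 12.6% ± 0.119, and TUBB2B supplied 22.2% ± 0.555 and 22.8% ± 0.163. TUBB4A and TUBB3 stayed below 1% in both groups by this measure. A set of 4 alpha-tubulins, chosen after their values were seen, showed a larger shift. TUBA1A supplied 89.5% ± 0.291 of it in GFP and 53.9% ± 0.743 in PGC1A, and TUBA1B, a widely used form, supplied 9.97% ± 0.284 and 19.2% ± 0.275 (6.48% and 13.3% by longest transcript), with 61.6% of its coding bases overlapped by another gene. TUBA4A, an alpha-tubulin whose gene encodes no terminal tyrosine, went from 0.114% ± 0.0152 to 26.5% ± 0.947. Its level was 1.25, 1.54 and 1.12 CPM in GFP and 114, 109.9 and 112 CPM in PGC1A. All PGC1A libraries lay far above the GFP libraries. TUBA4A rose by 6.42 log2 units (SE 0.07), at an adjusted p of 2.31e-53. Of its 50-base words 17.9% also occur in another annotated gene.

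**Figure D3:**
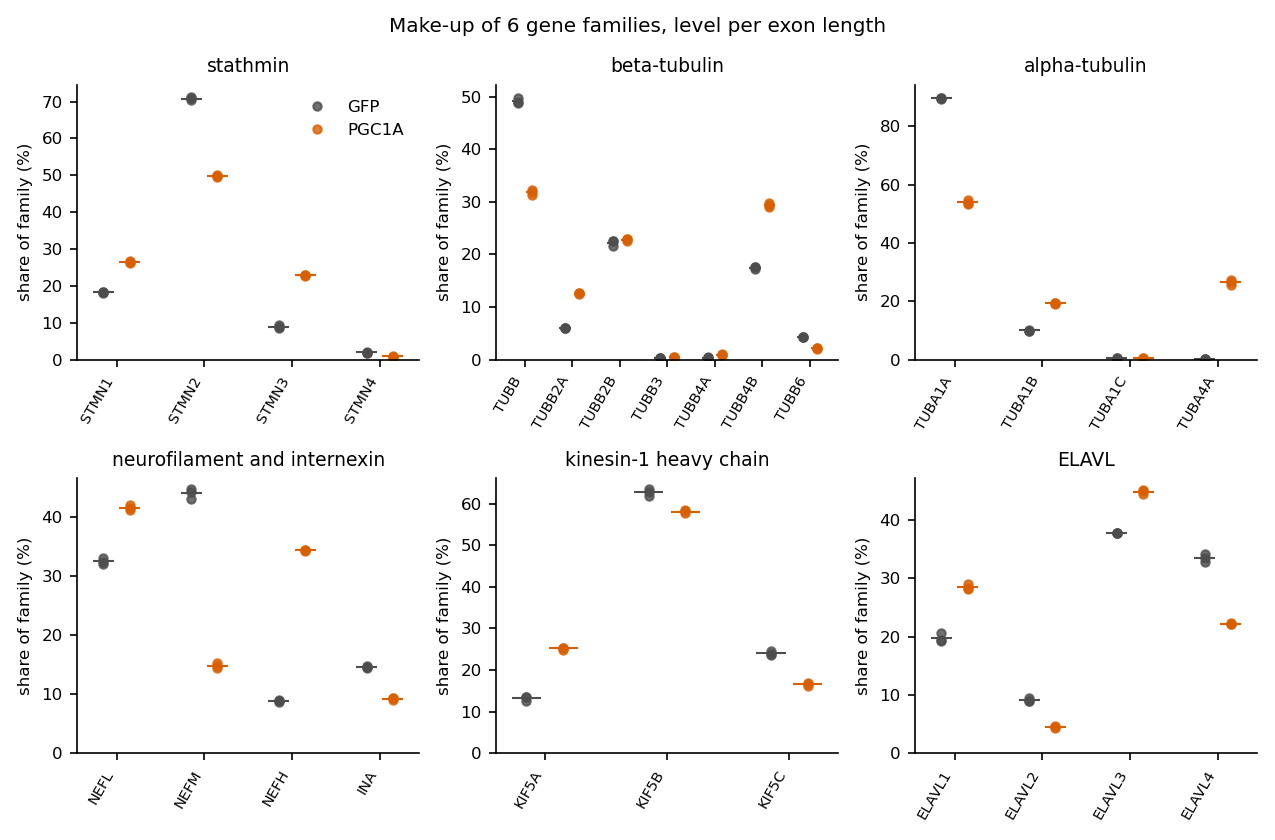
Share of each family's RNA (y axis, percent, starting at 0) made up by each gene (x axis), from CPM per kilobase of exon, for 6 families, with one point per library and a line at the mean of 3 libraries. In PGC1A (orange) STMN2, TUBB, TUBA1A, NEFM and ELAVL4 hold smaller shares than in GFP (grey), and STMN3, TUBB4B, TUBA4A, NEFH, NEFL and KIF5A hold larger ones.

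Intermediate filament genes also split, 2 higher and 3 lower. NEFL, the light chain on which neurofilaments assemble, had 355, 361 and 371 CPM in GFP and 1091, 1045 and 1051 CPM in PGC1A. The PGC1A libraries held about 2.93-fold more, well apart from the GFP libraries, the largest rise among the 43 genes. NEFL rose by 1.55 (log2 fold change, SE 0.02, adjusted p = 2.24e-45). INA (alpha-internexin), which co-assembles with neurofilaments in developing neurons, had 119.5, 121 and 124 CPM in GFP and 175, 177 and 178 CPM in PGC1A. INA rose by 0.54 on a log2 scale, with an SE of 0.03 and an adjusted p of 1.25e-23. Again no PGC1A library fell below a GFP library, but the rise of INA missed the threshold of the 1.5-fold test (adjusted p = 1 with glmTreat). NES (nestin), the filament of neural progenitors, had 750.2, 743 and 748 CPM in GFP and 178, 186 and 184 CPM in PGC1A. NES fell by 2.03 log2 units (SE 0.02), at an adjusted p of 6.77e-50. The fall of NES was about 4.09-fold, with replicates within a narrow range in each group. NEFM, the medium neurofilament chain, went from 496 ± 18.2 to 383 ± 8 CPM. NEFM fell by 0.37 (log2 fold change, SE 0.03, adjusted p = 1.96e-18). It missed the threshold of the 1.5-fold test (adjusted p = 1 with glmTreat). PRPH (peripherin), a filament of peripheral neurons, was near the lower limit with 13, 19 and 20 counts in GFP and 7, 5 and 3 in PGC1A. PRPH fell by 1.47 on a log2 scale, with an SE of 0.39 and an adjusted p of 5.62e-04. Genes on the opposite strand overlap 84.1% of the coding bases of PRPH and 33.6% of those of NEFM, and without the strand setting of the counting their reads cannot be told apart.

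The upstream stretches of INA and NES are shown as those of filament genes that moved in opposite directions, with INA at chr10:103276888-103277137 on the plus strand and NES at chr1:156677408-156677657 on the minus strand, from RefSeq on GRCh38.p14 with the same marking.
INA: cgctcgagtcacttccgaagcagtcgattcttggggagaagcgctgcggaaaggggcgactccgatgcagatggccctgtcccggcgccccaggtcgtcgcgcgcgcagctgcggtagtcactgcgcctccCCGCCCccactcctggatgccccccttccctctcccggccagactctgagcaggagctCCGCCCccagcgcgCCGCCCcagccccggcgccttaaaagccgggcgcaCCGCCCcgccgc
NES: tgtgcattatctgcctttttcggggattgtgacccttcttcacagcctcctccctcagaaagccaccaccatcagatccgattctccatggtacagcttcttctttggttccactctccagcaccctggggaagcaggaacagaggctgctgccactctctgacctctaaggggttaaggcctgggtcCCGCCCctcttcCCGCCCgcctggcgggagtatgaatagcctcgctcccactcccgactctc
INA holds 4 matches and NES 2, all of them GC boxes, in stretches with a G and C content of 72.8% and 58%. A GC box stood in a window of 26 of the 32 genes, of which 5 rose and 20 fell, where 5 of the 32 rose and 26 fell. A gene counted here if any of its windows held the box. This count therefore cannot be set against the shares of windows given above, and the share of all genes was not computed.

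The chains of the neurofilament changed in proportion, a description over a set chosen after the values were seen. NEFH, the heavy chain added as axons mature and not among the 43 genes, had 84.8, 86.4 and 88.2 CPM in GFP and 781, 756 and 762 CPM in PGC1A. NEFH rose by 3.15 log2 units (SE 0.03), at an adjusted p of 1.72e-56. Its share of the RNA of NEFL, NEFM, NEFH and INA per exon length went from 8.88% ± 0.150 to 34.3% ± 0.111. NEFL went from 32.5% ± 0.518 to 41.6% ± 0.406, NEFM from 44.0% ± 0.860 to 14.8% ± 0.361 and INA from 14.6% ± 0.195 to 9.27% ± 0.205. Together the 4 genes went from 257 ± 6.07 to 590.1 ± 8.83 CPM per kilobase. Of the 50-base words of NEFH 10% also occur in another annotated gene, as do 9.98% of those of NEFL.

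The neuronal ELAVL genes (HuB, HuC and HuD), whose products bind AU-rich elements and stabilise neuronal transcripts, fell in 3 of 3 cases, with a median of -1.19. ELAVL2 (HuB) measured 32.5, 31.7 and 34.9 CPM in GFP and 10.4, 10.6 and 11.1 CPM in PGC1A. ELAVL2 fell by 1.63 (log2 fold change, SE 0.06, adjusted p = 5.86e-30). ELAVL4 (HuD), a known binder of the GAP43 transcript, measured 168, 158 and 166 CPM in GFP and 72.1, 71.9 and 71.6 CPM in PGC1A. ELAVL4 fell by 1.19 on a log2 scale, with an SE of 0.03 and an adjusted p of 3.45e-36. ELAVL3 (HuC) measured 127, 125 and 129 CPM in GFP and 98.8, 98.8 and 99.8 CPM in PGC1A. ELAVL3 fell by 0.36 log2 units (SE 0.03), at an adjusted p of 6.31e-16. Groups were apart for each, though the fall of ELAVL3 was small (glmTreat adjusted p = 1) and 23.3% of its coding bases lie within another gene on the same strand. Per exon length, ELAVL1 (HuR), the ubiquitous relative, supplied 19.7% ± 0.720 of the family in GFP and 28.5% ± 0.442 in PGC1A, while ELAVL4 supplied 33.4% ± 0.685 and 22.2% ± 0.124. ELAVL3 supplied the most in both groups by summed exon length, 37.8% and 44.8%, whereas by longest transcript ELAVL4 led in GFP with 44.5%.

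Among 4 kinesins 2 rose and 2 fell. KIF5A, the neuron-specific heavy chain of kinesin-1 that carries neurofilaments and mitochondria, had 72.2, 75.4 and 77.5 CPM in GFP and 158, 154 and 163 CPM in PGC1A. KIF5A rose by 1.08 (log2 fold change, SE 0.03, adjusted p = 3.46e-34). KIF21B, a motor that also limits microtubule growth, had 13.6, 14.5 and 15.2 CPM in GFP and 19.6, 22.8 and 22.97 CPM in PGC1A. KIF21B rose by 0.59 on a log2 scale, with an SE of 0.06 and an adjusted p of 4.27e-12. In both, PGC1A libraries were above all GFP libraries, and KIF21B missed the threshold of the 1.5-fold test (adjusted p = 0.398 with glmTreat). KIF1A, the kinesin-3 motor of synaptic vesicle precursors, had 213, 225 and 218 CPM in GFP and 139, 147 and 149 CPM in PGC1A. KIF1A fell by 0.59 log2 units (SE 0.03), at an adjusted p of 7.71e-25. KIF5C, another neuronal kinesin-1 chain, went from 202 ± 6.55 to 154 ± 1.73 CPM. KIF5C fell by 0.39 (log2 fold change, SE 0.03, adjusted p = 2.87e-18). KIF1A and KIF5C missed the threshold of the 1.5-fold test (adjusted p = 0.306 and 1 with glmTreat). KIF5A supplied 13.2% ± 0.621 of kinesin-1 heavy chain RNA per exon length in GFP and 25.2% ± 0.284 in PGC1A. KIF5C went from 24.1% ± 0.498 to 16.7% ± 0.378, and KIF5B, the ubiquitous chain, from 62.7% ± 0.901 to 58.1% ± 0.404.

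Both actin-binding genes were modestly lower. FSCN1 (fascin), which bundles actin in filopodia, had 413, 419 and 405 CPM in GFP and 258, 269 and 263 CPM in PGC1A. FSCN1 fell by 0.65 on a log2 scale, with an SE of 0.02 and an adjusted p of 8.73e-29. DBN1 (drebrin), which links actin to microtubules in growth cones and spines, had 438, 448 and 447 CPM in GFP and 382, 375 and 371 CPM in PGC1A. DBN1 fell by 0.24 log2 units (SE 0.02), at an adjusted p of 4.55e-13. Groups did not overlap, but DBN1 missed the threshold of the 1.5-fold test (adjusted p = 1 with glmTreat).

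Both remaining pan-neuronal genes fell. RTN1, a reticulon of the neuronal endoplasmic reticulum, measured 124, 123 and 122 CPM in GFP and 18.6, 18.1 and 19.6 CPM in PGC1A. RTN1 fell by 2.71 (log2 fold change, SE 0.04, adjusted p = 4.94e-47). UCHL1 (PGP9.5), an abundant neuronal ubiquitin hydrolase, measured 572, 605 and 568 CPM in GFP and 263, 243 and 239.9 CPM in PGC1A. UCHL1 fell by 1.23 on a log2 scale, with an SE of 0.03 and an adjusted p of 2.90e-24. The PGC1A libraries held about 6.54-fold less RTN1 and 2.34-fold less UCHL1 than the GFP libraries.

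The order of abundance among the 43 genes changed with the treatment. Per kilobase of exon, the highest in GFP were STMN2 at 299 CPM, UCHL1 at 255 CPM and TUBA1A at 250.4 CPM, the last 2 within 1 SD of each other. In PGC1A NEFL led at 245 ± 5.74 CPM per kilobase, followed by TUBB2B at 113 ± 2.71 and UCHL1 at 109 ± 5.56, which also lay within their spread. PRPH was the lowest in both groups. This order holds for summed exon length only. By longest transcript, TUBA1A held 93.1% of the 481 CPM per kilobase of the 4 alpha-tubulins in GFP. STMN2 held 58.6% of the 543 CPM per kilobase of the stathmins there, so TUBA1A stood above STMN2.

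Other genes of the same machinery, taken from lists of named families, are given by their counts, and from each list the largest rises and falls at a mean of at least 1 CPM are named. Of 14 other tubulins tested 6 rose and 7 fell with a median of -0.27, led by TUBA4A and TUBG1 (log2 fold change 0.84), the gamma-tubulin of microtubule nucleation. The largest falls were those of TUBA1C and TUBB6 (-1.46 and -1.23). Of 21 other kinesins and light chains 8 rose and 9 fell with a median of -0.02. Their largest rises were in KLC4 (2.37), a kinesin light chain, and KIF9 (2.21), and the largest falls in KIF13A (-1.99) and KIF26A (-1.63). Dynein and dynactin subunits and adaptors, the motor toward the cell body, had 7 higher and 9 lower of 23 with a median of -0.04, or 4 and 18 with total counts. DCTN2 (0.76) and BICD2 (0.67) rose there, and DYNC1I1 (-1.43) and DYNLL1 (-0.81) fell.

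Of 40 genes of microtubule dynamics and tubulin modification 13 rose and 24 fell with a median of -0.31, or 7 and 28 with total counts. NAV1 (1.22), a microtubule plus-end protein, and CLASP1 (0.95) rose, and CAMSAP3 (-1.91), a minus-end protein, and VASH2 (-1.77), a tubulin carboxypeptidase, fell. Among 44 genes of actin dynamics 9 rose and 29 fell with a median of -0.33, or 5 and 36 with total counts. WASF3 (1.42) and ABLIM1 (1.17) rose, while CORO1A (-2.24) and ADD2 (-1.73) fell. Among 28 kinases of cytoskeletal proteins and their activators 9 rose and 17 fell with a median of -0.12, or 5 and 22 with total counts. BRSK1 (1.32) and MAPK9 (1.29) rose, while CDK5R1 (-1.97), the p35 activator of CDK5, and PAK3 (-1.87) fell.

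Other neuronal RNA-binding proteins gave 4 higher and 9 lower of 15 with a median of -0.43, with RBFOX1 (2.79) and KHDRBS3 (0.53) rising and CELF4 (-2.79) and CELF5 (-2.75) falling. Other intermediate filaments and linkers gave 5 higher and 5 lower of 13 with a median of -0.11, or 4 and 8 with total counts. Besides NEFH, DES (desmin), the filament of muscle, had 1, 1 and 2 counts in GFP and 1575, 1552 and 1389 in PGC1A, while VIM (vimentin) and LMNB1 (lamin B1) fell by 1.52 and 0.98 on the log2 scale. Another gene overlaps 63.0% of the coding bases of VIM. The medians of these 8 lists ran from -0.43 to -0.02, against -0.84 for the 43 genes. Noradrenergic and mesenchymal neuroblastoma markers had medians of -0.93 and -1.07, and Schwann cell and glial markers -0.50. None of these differences was tested.

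**Figure D4:**
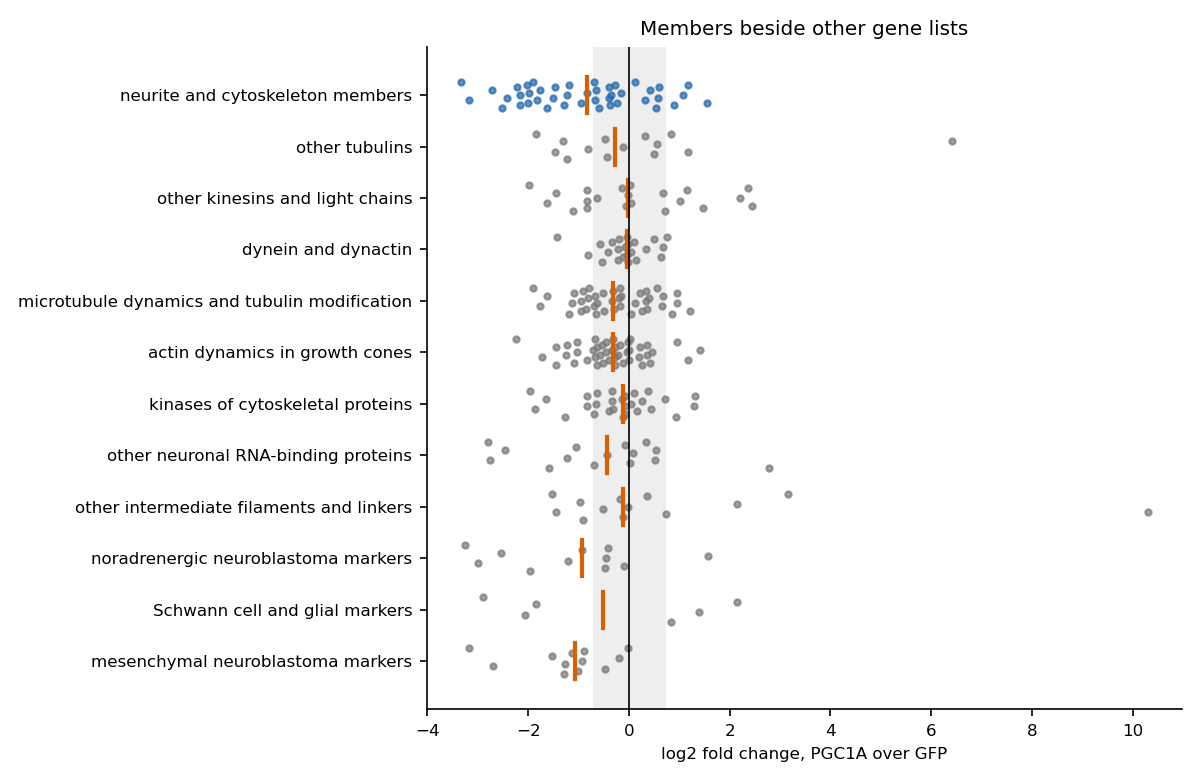
Log2 fold change (x axis) of the 43 genes in blue and of other gene lists in grey (y axis), one point per gene, with an orange bar at each list's median and a grey band over the quartiles of all genes. The median of the 43 genes is -0.84, and those of the 8 cytoskeletal and RNA-binding lists lie between -0.43 and -0.02. Medians of the noradrenergic and mesenchymal markers, at -0.93 and -1.07, lie further from 0. That of the Schwann cell and glial markers is -0.50.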

How the data were processed

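Counts are raw reads per gene as deposited, with 1 column per library. Per the submitters' processing notes the build was GRCh38 and the tools included HTSeq 0.10.0, STAR 2.6.0c, DESeq2 1.20.0 and DRAGEN, without roles. Per the labels' protocols, RNA was poly(A)-selected and strand was kept in the library. For the counting, neither a strand setting nor an annotation release is given in the sources used here. The 5 summary lines of the table, 28.8% to 31.0% of its reads, were left out. IDs were matched to GENCODE 29 (57492 of 58096).

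Counts were tested with edgeR 4.0.16 (R 4.3.3): TMM factors, filterByExpr (minimum count 10, total 15), robust glmQLFit, glmQLFTest and Benjamini-Hochberg adjustment (0.05, two-sided). CPM per kilobase used summed exon length. PCR copies carried no molecular identifiers. Replicate pairs differed by more than counting noise (chi-square per degree of freedom 1.25 to 2.81). The common coefficient of variation between replicates in the edgeR fit was nonetheless only 2.21%. The small adjusted p-values and the large share of genes passing rest on this scatter, which may be technical. Alternatives covered scaling, filters, DESeq2 1.42.0, limma-voom (limma 3.58.1), glmTreat (1.5-fold), the replicate block and single libraries left out.

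The 43 genes and the other lists were chosen with earlier results of these data known. In each class, values of every library are given for the 3 genes with the largest change and for each gene that rose. From each of the cytoskeletal and RNA-binding lists the 2 largest rises and falls at a mean of at least 1 CPM are named. The cell type marker lists are given by counts, medians and sums.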

Additional observations from a re-analysis of the deposited data

How the results depend on the processing

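Of 687 values of single genes among the 43 under an alternative setting, 670 kept their direction and their side of the threshold, and 29 of the 43 genes did so under every alternative run. Leaving out any 1 library changed 0 of these calls. Tested against a 1.5-fold change, 9241 genes passed in place of 16057, and 4 of the 43 genes were higher in place of 9. The reversals were MAP1A with total counts (-0.02) and TUBB3 with upper-quartile factors (-0.01) and with total counts (-0.21), and MAPT lost its call with total counts (0.08). The median log2 fold change of the 43 genes (-0.84) was -0.81 with DESeq2-type size factors and with the DESeq2 Wald test, -0.97 with upper-quartile factors, -1.17 with total counts and -0.78 with a filter of 1 CPM in 3 libraries. It was -1.07 over the 36 genes with little shared sequence, a set added after seeing the data. It ran from -0.87 to -0.82 with single libraries left out. Scaling shifts every gene alike, and a stricter filter tests fewer genes.

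No sign was seen that the replicate numbers in the titles pair the samples, though a pairing with small effects could go unseen here. Deviations from the group means correlated at -0.0114 to 0.0109 between libraries of the same number and at -0.0147 to 0.00863 between others. With the replicate number as a block, 16071 genes passed against 16057, with 9 higher and 33 lower among the 43 genes and a median of -0.84.

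Depth limits PRPH, whose counts are the smallest of the 43 genes. The shares of family RNA depend on the gene length used. With the longest transcript in place of summed exon length, the beta-tubulin share of TUBB3 was 0.634% in GFP and 0.803% in PGC1A in place of 0.326% and 0.401%, and that of TUBB6 was 7.21% and 3.6% in place of 4.37% and 2.11%. The values for STMN1, STMN2 and TUBA1B stand beside their results.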
